A study of Mus musculus with 8 samples.

Results

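The nuclear genes for subunits of the mitochondrial respiratory chain were followed in tumour cells sorted from mouse skin squamous cell carcinomas (SCC) at 2 stages of progression. The respiratory chain passes electrons from NADH and succinate to oxygen in the inner mitochondrial membrane. Complex I (NADH dehydrogenase) and complex II (succinate dehydrogenase) feed electrons in, complex III (the cytochrome bc1 complex) passes them to cytochrome c, and complex IV (cytochrome c oxidase) reduces oxygen. Complexes I, III and IV pump protons as they do so, and ATP synthase uses the gradient. Apart from complex II, which is encoded wholly in the nucleus, these complexes join nuclear subunits with a few made from mitochondrial DNA, which were not analysed here.

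Members were taken by symbol: Ndufa, Ndufb, Ndufc, Ndufs or Ndufv with a number, the Sdha to Sdhd genes, symbols starting with Uqcr, and those starting with Cox4 to Cox8. This gave 62 of the 17097 genes that had a probe set of their own on the array. For 31 of the 62 the array carried several probe sets, and the one with the highest mean over the arrays was used. For 10 of these 31 the probe sets did not all agree in the sign of the difference between the stages. By name and known role, 54 members encode widely expressed subunits and 8 encode tissue-restricted isoforms. The latter are Cox4i2, Cox6a2, Cox6b2, Cox7a1, Cox7b2, Cox8b, Cox8c and Ndufa4l2.

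The cells carried α6-integrin and CD34, and the labels name them cancer stem cells. They came from tumours that arose spontaneously or after DMBA-TPA in K14-HPV16 mice (strain label FVB/C57/Bl6), in which the keratin 14 promoter drives papillomavirus genes in basal keratinocytes, so both stages share that transgene. The tumours were grafted orthotopically onto nude mice, which lack mature T cells but keep other immune cells, stroma and vessels, and were passed on serially, and the suspensions were depleted of haematopoietic and endothelial cells before sorting. Well differentiated SCC (WD-SCC) was compared with poorly differentiated SCC (PD-SCC, written PD/S-SCC in the titles) in 3 tumour lineages. Each stage had 4 arrays: 2 of OT7, 1 of OT14 and 1 of OT15. The sources used here do not give the age of the mice, the passage or which lineages were DMBA-TPA induced. The titles call the arrays biological replicates without naming the tumour or mouse behind each, so the p-values speak only for the spread among these arrays, some of which may be technical, and the number of arrays limits the precision.

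Levels are deposited RMA signals in log2 units, and a difference of 1 is 2-fold. Signals of different genes are not compared with each other, because probe sets differ in brightness. On each array the highest of 15 unspiked bacterial control probe sets served as the mark of a dim signal, and it lay between 3.82 and 4.37 on WD-SCC arrays and between 3.61 and 3.81 on PD-SCC arrays. Of the 54 widely expressed members, 49 were above it on all 8 arrays. Keratinocyte markers separated the stages: Krt5, a basal keratin, lay between 10.53 and 11.62 in WD-SCC and between 3.93 and 4.33 in PD-SCC, and the desmosome gene Dsp was above the controls on only 1 PD-SCC array. Of the 9 keratinocyte markers, all 9 were above the controls on each WD-SCC array and 6 or 7 on each PD-SCC array. Of the sort markers, Itga6 was above the controls on all 8 arrays and Cd34 on 7, and on the OT15 WD-SCC array Cd34 was at 3.58 against a control of 4.37. That array also stood apart in the members. It was the lowest of the 4 WD-SCC arrays for 36 of the 54 widely expressed members, with a member median of 7.64 where the other WD-SCC arrays had 8.21 to 8.41 and the PD-SCC arrays 8.79 to 9.11.

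The comparison of PD-SCC with WD-SCC within lineages asked how the respiratory chain genes differed between the stages. Higher signal in PD-SCC was found for 24 of the 62 members, and none was called lower (two-sided limma test blocked on lineage, Benjamini-Hochberg adjusted p under 0.05 over all 17097 genes). Of all genes, 7.78% were called higher and 4.81% lower. At an unadjusted p under 0.05 the members' counts were 39 higher and 4 lower, against 17.2% and 14.7% of all genes. The median difference over the members was 0.78 in log2 units, against -0.06 over all genes, and 52 members had a positive and 10 a negative difference. A nonspecific control probe set of the array separated the stages without overlap as well, at 8.39 ± 0.26 (SD, n = 4) on WD-SCC arrays and 6.94 ± 0.19 (SD, n = 4) on PD-SCC arrays, and its part in the members' differences was not tested. The differences of the called members ran from 0.70 to 2.68, and 16 of the 24 were at least 2-fold. All 4 PD-SCC arrays lay above all 4 WD-SCC arrays for 26 members (10.8% of all genes), and below them for 3 members, Ndufa4, Ndufa4l2 and Cox6a2 (13.3% of all genes).

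Members are brighter than most genes on the array, and calls were more frequent among bright genes. Among the 3925 genes with a mean of at least 6, a limit chosen after seeing the data, 26.1% were called higher and 9.30% lower in a fit of their own. In that fit 24 of the 49 members kept were higher and 1, Ndufa4, was lower, and the medians were 0.88 over these members and 0.41 over all genes kept. The count of 24 depended on how the arrays entered the fit. With the OT7 arrays of each stage averaged, so that every lineage gave 1 value per stage, no member passed in limma, and 1.18% of all genes were called higher. At an unadjusted p under 0.05, 28 members were then higher and 3 lower, with 13.5% of all genes higher. With cyclic loess scaling 10 members were higher and 2 lower, and of all 17097 genes 799 (4.67%) were higher and 930 lower. It was 8 without either OT15 array, 15 without the unnumbered OT7 WD-SCC array, 9 without OT7 WD-SCC number 2, 5 without OT7 PD-SCC number 1 and 6 without OT7 PD-SCC number 2. Without either OT14 array it was 21 (4.52%). Under the lineage block, leaving out 1 array of OT14 or OT15 equals leaving out that lineage, so those fits coincide.

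**Figure D1:**
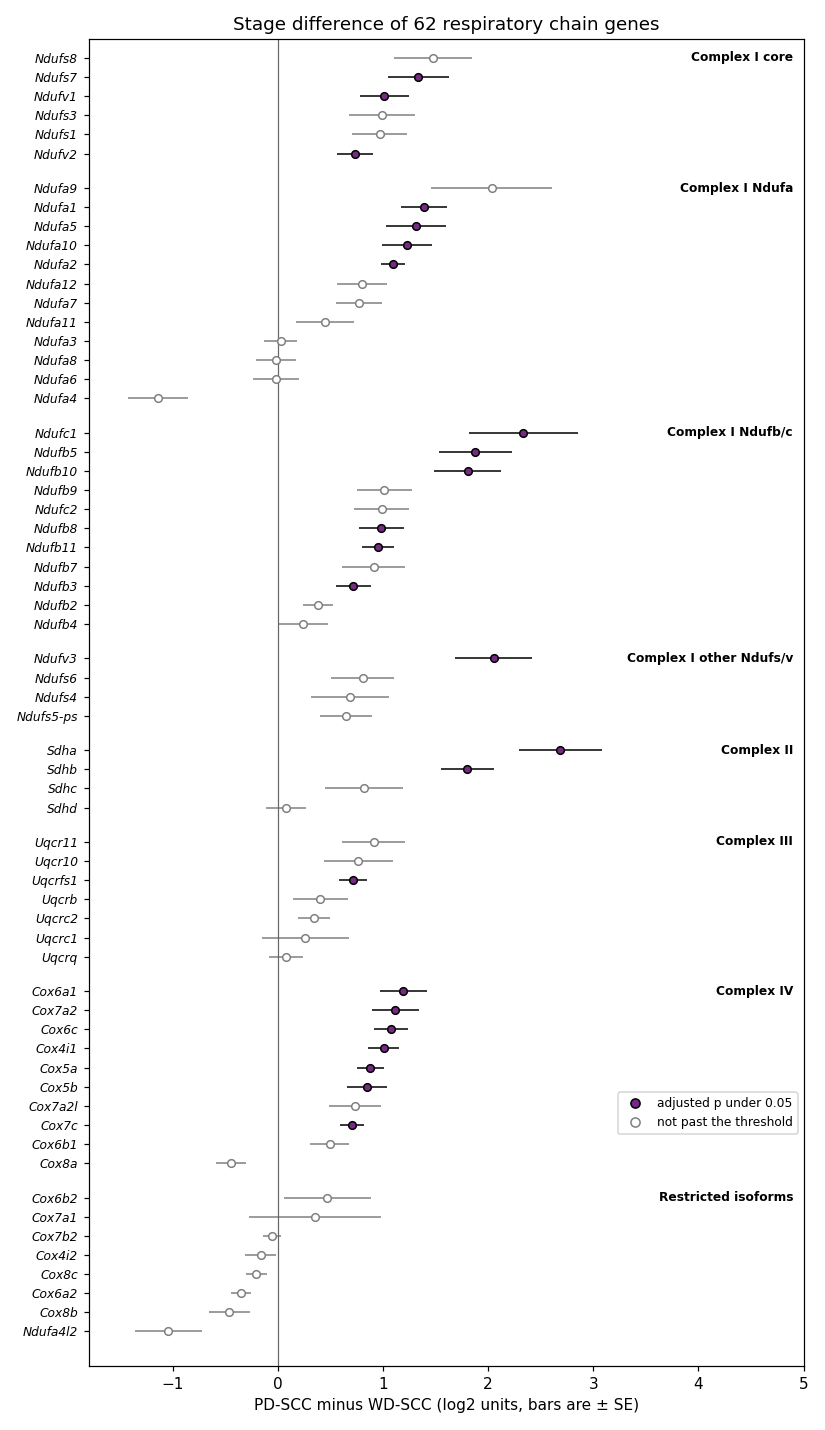
Difference between PD-SCC and WD-SCC in log2 units (x axis) for each of the 62 members, grouped by complex and role. Points are fitted differences with lineage as a block, bars are ± SE, and filled points passed the adjusted threshold; all 24 filled points lie to the right of 0, Sdha furthest at 2.68, and Ndufa4 furthest to the left at -1.14.

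Promoter windows of RefSeq (GRCm38.p6, 250 bases before to 50 after the start, 300 in all) were at hand for 48 of the 62 members, matched by gene ID. They are shown because factors that bind near the start sites of many respiratory chain genes are well known: NRF1, the ETS factor GABP, YY1 and the oestrogen-related receptors. The letters searched, on both strands, were GCATGCGC for NRF1, CCGGAAG for ETS factors, AAGATGGCG for YY1 and AAGGTCA for the oestrogen-related receptors. The windows of Sdhb (chr4:140961021-140961320, plus strand) and Cox6a1 (chr5:115348909-115349208, minus strand) hold the NRF1 and ETS letters, and that of Ndufc1 (chr3:51408906-51409205, minus strand) the YY1 letters. All 3 genes were called higher in PD-SCC. The windows shown here all hold such letters, whereas most of the called members with a window held none of them. The window of Cox8a (chr19:7217567-7217866, minus strand), whose difference was negative, holds the ETS letters at 2 places. Capitals mark the letters found, read 5′ to 3′ on the gene's strand; in Cox6a1 the NRF1 letters on the 2 strands overlap.
Sdhb: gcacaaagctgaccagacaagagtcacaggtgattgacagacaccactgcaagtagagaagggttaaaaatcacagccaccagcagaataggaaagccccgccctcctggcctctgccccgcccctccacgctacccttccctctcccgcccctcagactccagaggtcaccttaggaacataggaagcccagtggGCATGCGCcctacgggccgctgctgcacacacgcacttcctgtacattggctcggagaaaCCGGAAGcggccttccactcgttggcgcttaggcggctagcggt
Cox6a1: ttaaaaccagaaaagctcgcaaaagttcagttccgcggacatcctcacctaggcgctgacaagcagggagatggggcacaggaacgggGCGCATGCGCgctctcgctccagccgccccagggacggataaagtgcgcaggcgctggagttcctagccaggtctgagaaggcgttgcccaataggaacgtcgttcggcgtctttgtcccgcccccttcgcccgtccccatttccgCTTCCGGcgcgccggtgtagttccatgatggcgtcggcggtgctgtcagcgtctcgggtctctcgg
Ndufc1: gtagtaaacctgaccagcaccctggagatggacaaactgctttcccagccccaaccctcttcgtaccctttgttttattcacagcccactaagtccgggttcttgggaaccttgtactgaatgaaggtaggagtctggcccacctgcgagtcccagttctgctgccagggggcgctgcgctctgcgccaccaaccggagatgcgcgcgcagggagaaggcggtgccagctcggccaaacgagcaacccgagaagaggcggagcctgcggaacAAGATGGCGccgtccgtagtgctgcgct
Cox8a: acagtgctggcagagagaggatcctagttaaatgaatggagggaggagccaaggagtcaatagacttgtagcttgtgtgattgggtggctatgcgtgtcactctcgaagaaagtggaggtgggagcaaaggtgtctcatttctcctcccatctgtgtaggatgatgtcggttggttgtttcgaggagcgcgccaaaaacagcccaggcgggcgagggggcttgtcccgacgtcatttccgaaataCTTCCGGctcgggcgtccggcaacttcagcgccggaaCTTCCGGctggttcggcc
The NRF1 letters were found in 7 of the 48 windows (14.6%) and in 3.05% of the windows of all 27025 genes in the table. For the ETS letters these values were 9 of 48 (18.8%) and 9.93%, for YY1 5 of 48 (10.4%) and 1.64%, and for the oestrogen-related receptors 3 of 48 (6.25%) and 5.38%. Among the 21 called members with a window, 2 held the NRF1 letters, 2 the ETS letters, 2 the YY1 letters and none the last. Among the other 27 members these counts were 5, 7, 3 and 3. A match describes these letters in this window and is not a measured binding site.

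The core subunits of complex I hold the flavin, the iron-sulphur clusters and the quinone site. Of the 6 measured, 3 were higher in PD-SCC, all 6 differences were positive and their median was 1.00. The share called higher was 7.78% over all genes and 26.1% over bright genes, those averaging 6 or more, in their own fit. The same shares are the background for the counts of the groups below, and differences between groups were not tested. In the lists of values that follow, WD-SCC arrays are given in the order OT7 without a number, OT7 number 2, OT14 and OT15, and PD-SCC arrays in the order OT7 number 1, OT7 number 2, OT14 and OT15. Ndufs7, whose product carries the last iron-sulphur cluster before the quinone, read 8.33, 9.06, 9.65 and 9.04 in WD-SCC and 10.33, 10.66, 10.11 and 10.33 in PD-SCC. The stages did not overlap, and the difference was 1.34 ± 0.29 (SE, n = 4 arrays a stage, limma adjusted p = 0.0399). The flavoprotein gene Ndufv1, whose product takes the electrons from NADH, differed by 1.01 ± 0.23 SE (adjusted p = 0.0464), and Ndufv2, which carries the iron-sulphur cluster beside it, differed by 0.73 ± 0.17 SE (adjusted p = 0.0475). The Ndufv2 arrays overlapped between the stages, since WD-SCC OT14 was at 8.35 and PD-SCC OT7 number 1 at 8.20.

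The remaining core genes did not pass the threshold with the probe sets used, although their PD-SCC arrays all lay above their WD-SCC arrays. Ndufs8, an iron-sulphur subunit, read 4.41, 4.19, 5.18 and 5.50 in WD-SCC and 6.69, 6.57, 5.94 and 5.97 in PD-SCC, a difference of 1.47 ± 0.37 SE (adjusted p = 0.0570). Its OT7 arrays moved furthest, by 2.33, against 0.76 in OT14 and 0.47 in OT15. Other probe sets of Ndufs8 gave smaller differences of 0.74, 0.78 and -0.01. In a limma fit over all probe sets, those of 0.74 and 0.78 passed (adjusted p = 0.0322 and 0.0480). Ndufs1, the largest subunit of the complex, was dim in WD-SCC, above the controls on 1 of 4 arrays, and differed by 0.97 (adjusted p = 0.0658). Ndufs3 differed by 0.99 (adjusted p = 0.0962), with its lowest value, 5.15, on the OT15 WD-SCC array.

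Accessory subunits of the Ndufa series surround the core of complex I. Of 12 measured, 4 were higher in PD-SCC, and the median difference was 0.78. Ndufa2, a small subunit of the matrix arm, had the smallest adjusted p of all members. It read 9.82, 10.01, 9.61 and 9.27 in WD-SCC and 11.01, 11.14, 10.44 and 10.50 in PD-SCC, so the stages were separated by a clear gap. The difference was 1.10 ± 0.11 SE (adjusted p = 0.00591). It was close in size in OT7 (1.16), OT14 (0.83) and OT15 (1.24).

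Ndufa1, encoded on the X chromosome and needed for assembly of the membrane arm, read 8.40, 8.28, 7.75 and 6.55 in WD-SCC and 9.72, 9.40, 8.72 and 8.70 in PD-SCC. Every PD-SCC array was above every WD-SCC array (difference 1.39 ± 0.22 SE, adjusted p = 0.0165). Ndufa10 differed by 1.23 ± 0.24 SE (adjusted p = 0.0309) and Ndufa5 by 1.32 ± 0.29 SE (adjusted p = 0.0389). For Ndufa5 the OT15 PD-SCC array and the OT7 WD-SCC number 2 array both read 10.18, so the stages touched.

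Ndufa4 went the other way. Although named for complex I, its product is now placed in complex IV. It read 10.07, 10.92, 10.97 and 11.00 in WD-SCC and 9.72, 9.94, 9.59 and 9.17 in PD-SCC. All PD-SCC arrays were lower than all WD-SCC arrays, and the difference was -1.14 ± 0.29 SE, which missed the threshold (adjusted p = 0.0567). It passed as lower under 7 of 21 alternative settings, and the adjusted p over them ran from 0.0179 to 0.143. The differences of some other Ndufa genes were smaller than their SE: Ndufa3 (0.02 ± 0.16 SE), Ndufa6 (-0.02 ± 0.22 SE) and Ndufa8 (-0.01 ± 0.19 SE). Ndufa9, which stabilises the junction between the 2 arms of the complex, had the largest difference of the series at 2.03 but varied between lineages (SE 0.58, adjusted p = 0.0745). It was 4.27 to 6.38 in WD-SCC and 6.07 to 8.38 in PD-SCC, and in OT14 the 2 stages read 6.38 and 6.37.

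The Ndufb and Ndufc subunits build the membrane arm of complex I. Of 11 measured, 6 were higher in PD-SCC, all 11 differences were positive and the median was 0.98. Ndufc1 had the largest mean difference of the complex I genes. It read 8.28, 7.59, 7.96 and 4.91 in WD-SCC and 9.91, 10.09, 8.95 and 9.14 in PD-SCC. The difference was 2.33 ± 0.52 SE (adjusted p = 0.0412), and the OT15 WD-SCC array lay far below the other arrays of its stage. The second probe set of Ndufc1 gave a difference of 1.79.

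Ndufb5 differed by 1.88 ± 0.35 SE (adjusted p = 0.0270), with WD-SCC values of 5.40, 6.02, 6.15 and 3.85 and PD-SCC values of 8.02, 7.71, 6.78 and 6.44. The lowest of these, on the OT15 WD-SCC array, was under the bacterial controls. Ndufb10 read 6.35, 6.13, 7.41 and 6.67 in WD-SCC and 8.63, 8.80, 8.15 and 8.20 in PD-SCC, a difference of 1.81 ± 0.32 SE (adjusted p = 0.0226). Its stages did not overlap, and the OT7 arrays were furthest apart. Smaller differences passed for Ndufb11 (0.95 ± 0.16 SE, adjusted p = 0.0188), Ndufb8 (0.98 ± 0.21 SE, adjusted p = 0.0395) and Ndufb3 (0.72 ± 0.17 SE, adjusted p = 0.0474). Of the 5 that did not pass, Ndufb9 (1.01, adjusted p = 0.0593) and Ndufc2 (0.99, adjusted p = 0.0634) were nearest and Ndufb4 was smallest (0.24) with the probe set used. A dimmer Ndufb4 probe set, still above the controls on 8 arrays, gave 1.14. One above them on 0 arrays gave -0.08.

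Of the 4 other Ndufs and Ndufv genes, Ndufv3 was higher in PD-SCC. This accessory subunit of the NADH-binding tip read 7.36, 7.65, 8.84 and 6.00 in WD-SCC and 9.61, 9.68, 9.62 and 9.13 in PD-SCC. The WD-SCC arrays were scattered and the PD-SCC arrays close together, and the difference was 2.05 ± 0.36 SE (adjusted p = 0.0232). Ndufs6, which holds a zinc ion needed for assembly, differed by 0.81 (adjusted p = 0.134), Ndufs4 by 0.69 (adjusted p = 0.259) and the probe set annotated to the pseudogene Ndufs5-ps by 0.65 (adjusted p = 0.142). The last cannot be told apart from its parent gene Ndufs5 here. Each of these 3 was lowest on the OT15 WD-SCC array, at 7.78, 6.84 and 7.40.

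**Figure D2:**
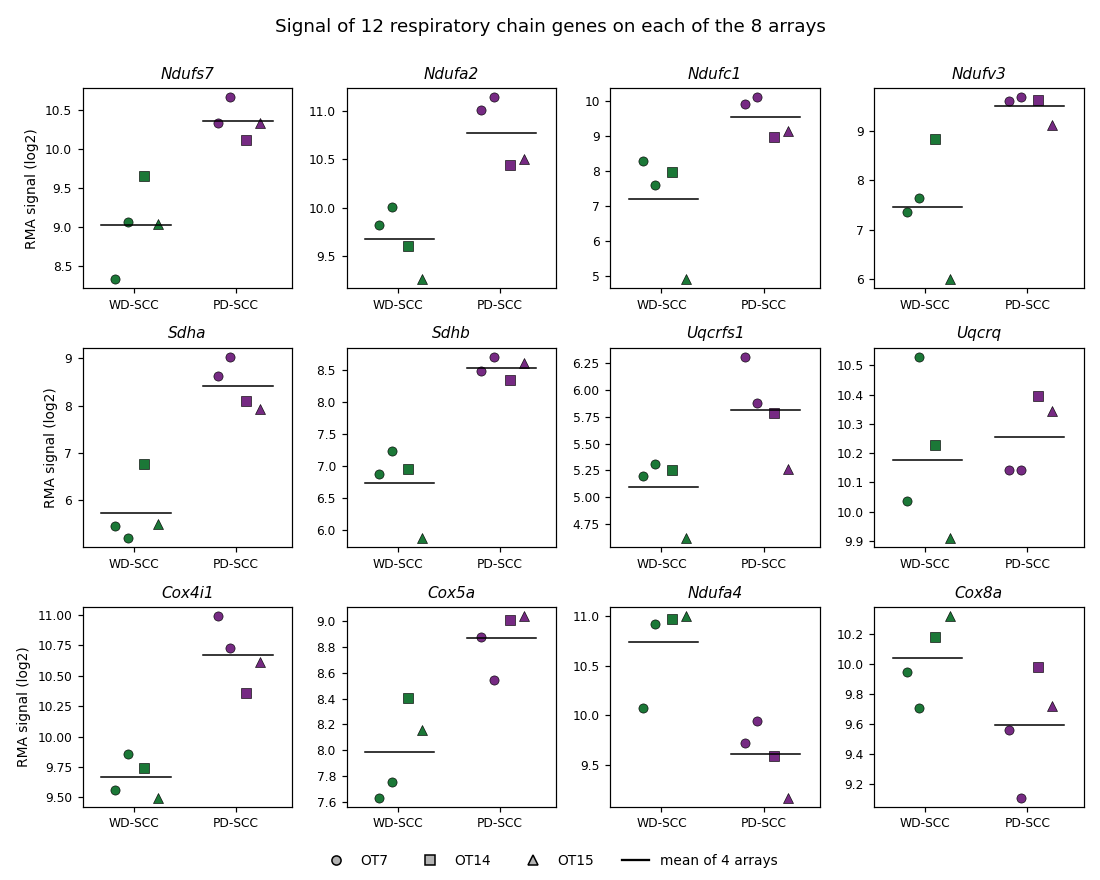
RMA signal in log2 units (y axis, scaled for each gene and not from 0) on each array for 12 members, WD-SCC left and PD-SCC right, with the lineage as the symbol and the mean as a line. The stages are apart for Ndufs7, Ndufa2, Ndufc1, Ndufv3, Sdha, Sdhb, Cox4i1 and Cox5a, overlap for Uqcrfs1, Uqcrq and Cox8a, and are apart in the opposite direction for Ndufa4.

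Complex II held the member with the largest difference. Sdha, the flavoprotein that oxidises succinate, read 5.46, 5.20, 6.76 and 5.50 in WD-SCC and 8.62, 9.03, 8.09 and 7.92 in PD-SCC. Even the lowest PD-SCC array was well above the highest WD-SCC array. The difference was 2.68 ± 0.39 SE (6.42-fold, adjusted p = 0.0141). A second Sdha probe set gave 1.70, and the 2 remaining ones were not above the controls on any array.

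Sdhb, the iron-sulphur subunit, read 6.88, 7.23, 6.95 and 5.88 in WD-SCC and 8.49, 8.71, 8.35 and 8.61 in PD-SCC. The PD-SCC arrays lay within a narrow band above all WD-SCC arrays, and the difference was 1.80 ± 0.25 SE (3.49-fold, adjusted p = 0.0124). The membrane anchors did not pass. Sdhc differed by 0.82 ± 0.37 SE (adjusted p = 0.192), with WD-SCC values of 3.69 to 5.38 and PD-SCC values of 4.86 to 6.27. Sdhd lay between 3.60 and 4.43, above the controls on 2 WD-SCC and all 4 PD-SCC arrays, and differed by 0.08 ± 0.19 SE (adjusted p = 0.807).

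Complex III had the smallest median of the widely expressed groups, 0.40, and 1 of its 7 members passed. That was Uqcrfs1, the Rieske iron-sulphur protein, at 5.20, 5.31, 5.26 and 4.61 in WD-SCC and 6.31, 5.88, 5.79 and 5.26 in PD-SCC. Within each lineage PD-SCC was higher, but the OT15 PD-SCC array was level with the WD-SCC arrays of the other lineages. The difference was 0.71 ± 0.13 SE (adjusted p = 0.0270), and it missed the threshold in each of the 8 fits that left out 1 array (adjusted p 0.0520 to 0.0721). Uqcr11, a small subunit, differed by 0.91 ± 0.30 SE (adjusted p = 0.103), and its WD-SCC values were 8.64, 8.80, 8.58 and 7.20 against 9.13, 9.42, 9.03 and 9.28. Uqcr10 differed by 0.77 (adjusted p = 0.175), Uqcrb by 0.40 (adjusted p = 0.329) and the core proteins Uqcrc1 and Uqcrc2 by 0.26 and 0.34 (adjusted p = 0.690 and 0.182). Other probe sets of Uqcr10, above the controls on all 8 arrays, gave 0.21 and -0.43. Uqcrq, another small subunit, stayed between 9.91 and 10.53 on all arrays with a difference of 0.08 ± 0.16 SE.

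Cyc1, the cytochrome c1 of the same complex, falls outside the symbols chosen and differed by 1.45 ± 0.32 SE (adjusted p = 0.0410). It was 6.24 to 7.82 in WD-SCC and 8.17 to 8.72 in PD-SCC.

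Of the 10 widely expressed complex IV genes, 7 were higher in PD-SCC and the median was 0.86. Cox5a, a subunit on the matrix side, read 7.63, 7.75, 8.41 and 8.16 in WD-SCC and 8.88, 8.55, 9.01 and 9.04 in PD-SCC. The stages were apart, by little between the highest WD-SCC array and the lowest PD-SCC array (difference 0.88 ± 0.13 SE, adjusted p = 0.0137). Cox4i1, the largest nuclear subunit and a site of ATP inhibition, read 9.56, 9.86, 9.74 and 9.50 in WD-SCC and 10.99, 10.72, 10.35 and 10.61 in PD-SCC. Its WD-SCC arrays were close together and all below PD-SCC (difference 1.00 ± 0.15 SE, adjusted p = 0.0141).

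Cox6c differed by 1.07 ± 0.16 SE (adjusted p = 0.0150), Cox7c by 0.70 ± 0.12 SE (adjusted p = 0.0197), Cox7a2 by 1.12 ± 0.22 SE (adjusted p = 0.0309) and Cox5b by 0.85 ± 0.19 SE (adjusted p = 0.0433). In each of these the PD-SCC arrays were all above the WD-SCC arrays. Other probe sets of Cox5b gave 0.70, -0.24 and -0.04, above the controls on 8, 4 and 0 arrays. Cox6a1 passed as well (1.19 ± 0.22 SE, adjusted p = 0.0276), with 1 overlap: OT14 WD-SCC was at 10.66 and OT15 PD-SCC at 10.47. Cox7a2l, which joins complexes III and IV in supercomplexes, differed by 0.74 (adjusted p = 0.108).

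Cox8a, a small membrane-spanning subunit, was the only one of these 10 with a negative difference, Ndufa4 being counted above with the Ndufa genes. It read 9.95, 9.70, 10.18 and 10.32 in WD-SCC and 9.56, 9.11, 9.98 and 9.72 in PD-SCC. It was lower in PD-SCC in each lineage but the stages overlapped, and the difference of -0.45 ± 0.15 SE did not pass (adjusted p = 0.102). Its second probe set also gave -0.45. With cyclic loess scaling it was called lower. The adjusted p over 21 settings ran from 0.0331 to 0.364.

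Most of the tissue-restricted isoforms replace a widely expressed partner in heart, muscle, lung or testis, while Ndufa4l2 is linked to hypoxia. None of the 8 passed the threshold (2 positive and 6 negative differences, median -0.18). Their values ran from 2.96 to 7.80, and 5 of the 8 were above the bacterial controls on all arrays. The controls themselves were lower on PD-SCC arrays, so that small negative differences of probe sets near them go the same way, and their part was not tested. Cox6a2, the muscle partner of Cox6a1, read 4.49, 4.37, 4.32 and 4.73 in WD-SCC and 4.07, 4.10, 4.12 and 4.22 in PD-SCC. These low values, above the controls on every array, did not overlap (difference -0.35 ± 0.09 SE, adjusted p = 0.0680). Cox4i2, the lung and hypoxia-linked partner of Cox4i1, stayed between 4.06 and 4.52 (difference -0.16 ± 0.15 SE). Cox8b, the muscle partner of Cox8a, lay between 3.74 and 4.86 (difference -0.46 ± 0.20 SE, adjusted p = 0.169). Cox7b2 was under the controls on every array.

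Ndufa4l2, the hypoxia-linked relative of Ndufa4, read 5.23, 4.80, 5.28 and 6.29 in WD-SCC and 4.73, 3.93, 4.55 and 4.23 in PD-SCC. The stages did not overlap and both partners of this pair had negative differences (Ndufa4l2 -1.04 ± 0.32 SE, adjusted p = 0.0880). Cox7a1, the heart and muscle partner of Cox7a2, had its 3 highest values in OT7. It read 4.89 and 6.73 in the OT7 WD-SCC arrays and 7.80 and 6.51 in the OT7 PD-SCC arrays, against 5.38 and 5.29 (WD-SCC) and 4.80 and 4.57 (PD-SCC) in OT14 and OT15. The OT7 arrays of each stage differed from each other by more than 1 log2 unit, and the stage difference of 0.35 ± 0.63 SE had no settled sign: it was -0.64 without lineage OT7. Cox6b2, the testis partner of Cox6b1, read 4.72 and 3.63 in OT7 WD-SCC and 4.55 and 5.79 in OT7 PD-SCC, and between 3.59 and 3.85 on the other 4 arrays. It differed by 0.47 ± 0.42 SE, or -0.05 without OT7. Cox6b1 itself read 11.06 and 11.03 in OT7 PD-SCC and between 9.98 and 10.17 on the other 6 arrays.

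Summed linear signal of 17 skeletal muscle markers was 316 to 425 in WD-SCC and 289 to 346 in PD-SCC (1 of 17 called lower). Between 5 and 10 of the 17 were above the controls on a WD-SCC array and between 8 and 11 on a PD-SCC array. Above them on all 8 arrays were 4 of the markers, and 5 were above them on none, among these the myosin genes Myh1, Myh2 and Myh4.

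**Figure D3:**
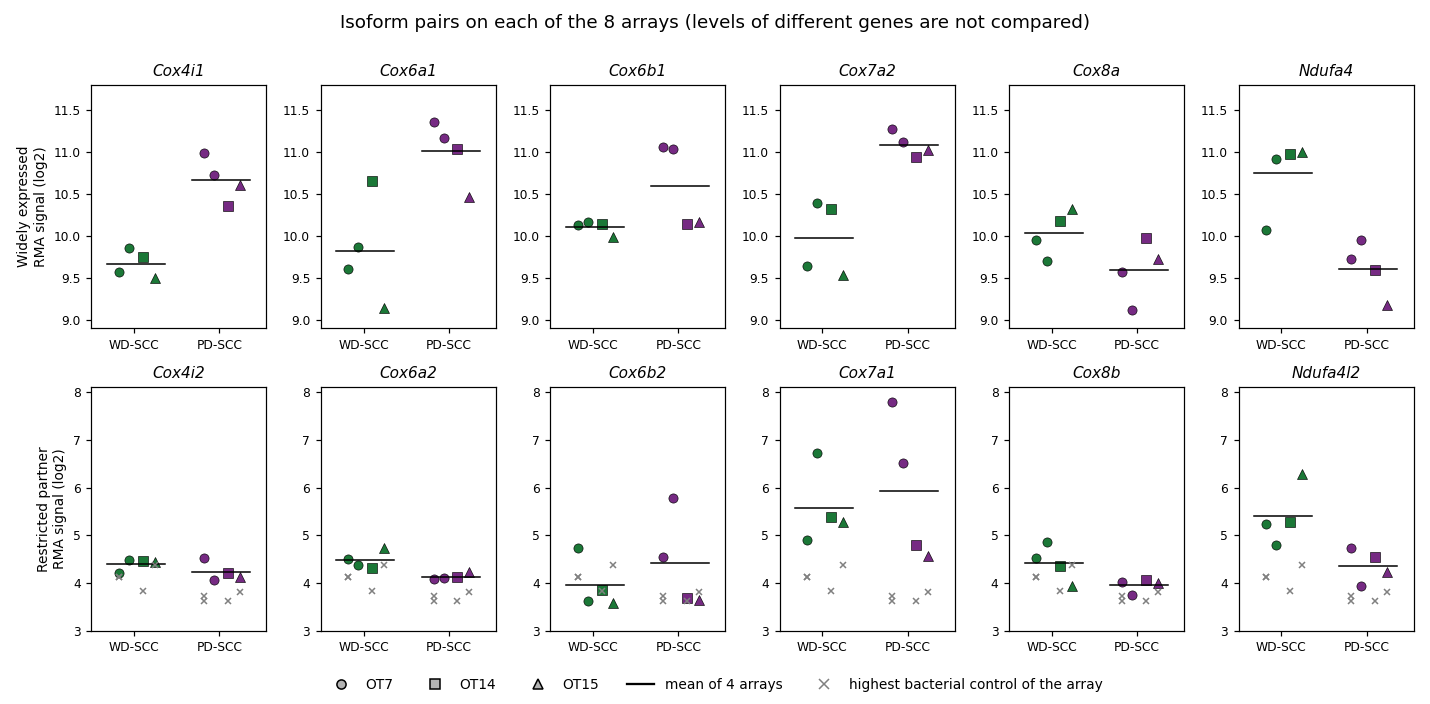
RMA signal in log2 units (y axis, 1 range for each row) of the widely expressed member (top) and its tissue-restricted partner (bottom) on each array, with the stage mean as a line and each array's highest bacterial control as a cross. Cox4i2, Cox6a2 and Cox8b stay close to the crosses in both stages, Cox7a1 and Cox6b2 each have their highest value on an OT7 PD-SCC array and their second highest on an OT7 WD-SCC array, and Ndufa4 and Ndufa4l2 are both lower in PD-SCC.

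Within single lineages the members were also mostly higher in PD-SCC. Their median difference came to 0.85 for lineage OT7, to 0.45 for OT14 and to 0.96 for OT15, where all genes had -0.08, 0.01 and -0.07. Higher in all 3 lineages were 42 members (22.2% of all genes) and lower in all 3 were 6 (29.0% of all genes). OT14 had the smallest difference of the 3 lineages for 37 of the 62 members, for 23 of the 24 called ones and for 4402 of all 17097 genes. These tests take their error from the OT7 arrays alone, since the other lineages had 1 array a stage.

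In OT7, 18 members were higher and none lower (limma, adjusted p under 0.05, background 6.21% higher and 2.87% lower; at an unadjusted p under 0.05, 33 higher and 1 lower against 16.7% and 11.7% of all genes). Of these, 13 were also called over the lineages together. The other 5 were Ndufs8, Ndufs1, Ndufa9, Ndufb9 and Cox6b1. Sdha differed by 3.50 in OT7, Ndufa9 by 3.17 and Ndufb10 by 2.48. In OT15, 3 members passed, Ndufc1 (4.23), Ndufv3 (3.14) and Ndufs3 (2.20), with a background of 1.33% of genes in either direction. At an unadjusted p under 0.05 there were 31 members and 18.7% of all genes. In OT14 no member passed (limma, background 0.842%; 12 members against 14.5% of all genes at an unadjusted p under 0.05), and its largest positive differences were those of Sdhb (1.39), Sdha (1.32) and Cox7a2l (1.19).

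No member's stage difference differed between the lineages past the threshold (interaction F test in limma, background 0.00% of genes; 18 members and 11.9% of all genes at an unadjusted p under 0.05). The smallest unadjusted p were those of Ndufs8 (0.00404, adjusted 0.216), Ndufv3 (0.00582, adjusted 0.230) and Ndufs3 (0.00763, adjusted 0.244). Ndufs8 differed most in OT7, and Ndufv3 and Ndufs3 in OT15. For the level beside stage, no member passed the limma F test between lineages (background 0.00%, 12 members and 7.32% of all genes at an unadjusted p under 0.05). The smallest p there belonged to Ndufa1 (0.00707), Ndufa2 (0.00868) and Uqcrfs1 (0.0122), with adjusted p of 0.510, 0.532 and 0.552, and in these OT7 was the brightest lineage in PD-SCC.

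**Figure D4:**
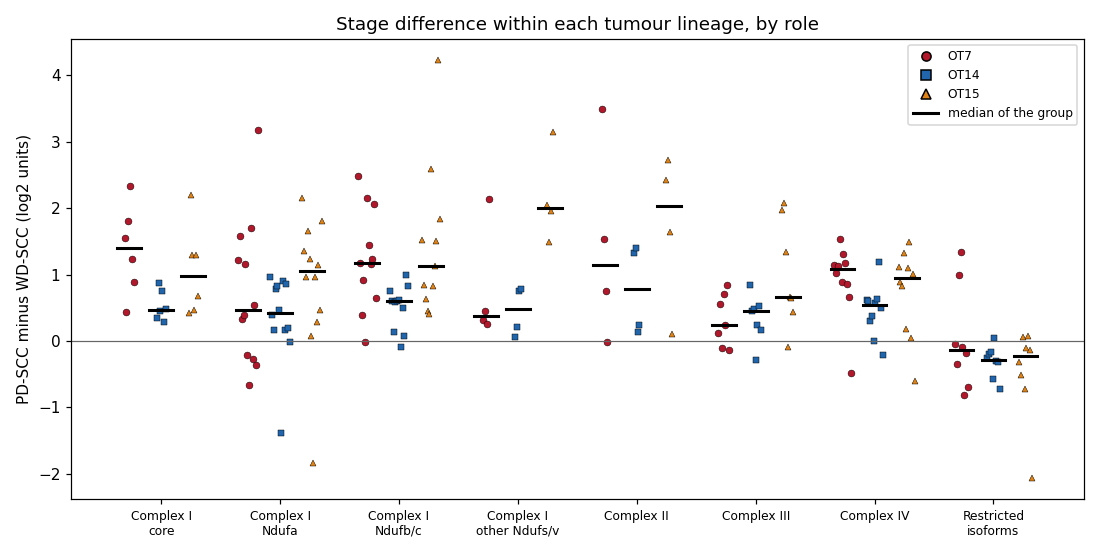
PD-SCC minus WD-SCC in log2 units (y axis) within OT7, OT14 and OT15 for each member, by complex and role (x axis), with the group median as a bar. OT14 medians are below those of both other lineages in the complex I core, Ndufa and Ndufb/c groups, complex II and complex IV, and the medians of the restricted isoforms are below 0 in all 3 lineages, with Cox7a1 (1.35) and Cox6b2 (0.99) above 0 in OT7.

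Genes that work beside the chain were read from lists chosen by function. Of all genes, 7.78% were called higher and 4.81% lower. Of those with a mean of at least 6, 26.1% were higher and 9.30% lower in their own fit. Of 19 ATP synthase genes, which use the proton gradient, 8 were higher in PD-SCC and none lower, with a median of 0.65. Atp5c1, the central stalk, differed by 1.30 ± 0.10 SE (adjusted p = 0.00336), Atp5a1, part of the catalytic head, by 1.19 ± 0.11 SE (adjusted p = 0.00473) and Atp5mpl by 0.73 ± 0.12 SE (adjusted p = 0.0193). For all 3 the stages did not overlap. The list of cytochrome c and c1 had 1 of 3 higher, Cyc1. Of 12 measured genes of the tricarboxylic acid cycle, which supplies NADH and succinate, 7 were higher and none lower (median 1.09). Suclg2, a succinyl-CoA ligase subunit, differed by 2.57 ± 0.19 SE (adjusted p = 0.00313), the NAD-dependent isocitrate dehydrogenase subunit Idh3b by 1.68 ± 0.16 SE (adjusted p = 0.00519) and fumarate hydratase, Fh1, by 1.60 ± 0.19 SE (adjusted p = 0.00797). Idh2, the NADP-dependent enzyme, had the only negative difference of the list (-0.55, adjusted p = 0.113).

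Assembly factors insert cofactors and join subunits without staying in the complexes. Of 40 measured, 5 were higher and none lower (median 0.25), where 7.78% of all genes were higher, and 19 were above the controls on all arrays. The 3 with the smallest p were Uqcc2 (0.85), Cox18 (1.82) and Ttc19 (1.51), which act in complexes III and IV. Among 15 regulators of mitochondrial genes none was higher and Esrra, the oestrogen-related receptor α, was lower. It read 5.81, 6.06, 6.23 and 6.66 in WD-SCC and 4.62, 4.96, 5.19 and 5.64 in PD-SCC, without overlap (difference -1.09 ± 0.12 SE, adjusted p = 0.00704). Nrf1 (0.06), Gabpa (-0.40), Yy1 (0.32) and Tfam (0.37), the mitochondrial transcription factor, did not pass.

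Of 15 hypoxia-response genes, 1 was higher (Egln1, an oxygen-sensing prolyl hydroxylase, 1.19, adjusted p = 0.0183) and 2 were lower (Ndrg1 -2.74 and Epas1 -1.97, adjusted p = 0.00987 and 0.0270), with a median of 0.08. Markers of several cell types were followed too. The summed linear signal of 9 keratinocyte markers was 5458 to 9651 in WD-SCC and 163 to 273 in PD-SCC, with 8 of 9 called lower. For 8 endothelial markers it was 162 to 1750 and 107 to 421 (2 lower), for 12 haematopoietic markers 544 to 1194 and 195 to 289 (2 lower), and for 10 fibroblast markers 624 to 8883 and 1287 to 3487 (none called). For 5 adipocyte markers it was 154 to 820 and 46.8 to 84.6 (2 lower), and for 6 markers of cardiac muscle, smooth muscle and pericytes 93.7 to 122 and 107 to 416 (none called). In sorted bulk cells, fewer cells of a type and less RNA per cell cannot be told apart, and the part of these markers in the members' differences was not tested.

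**Figure D5:**
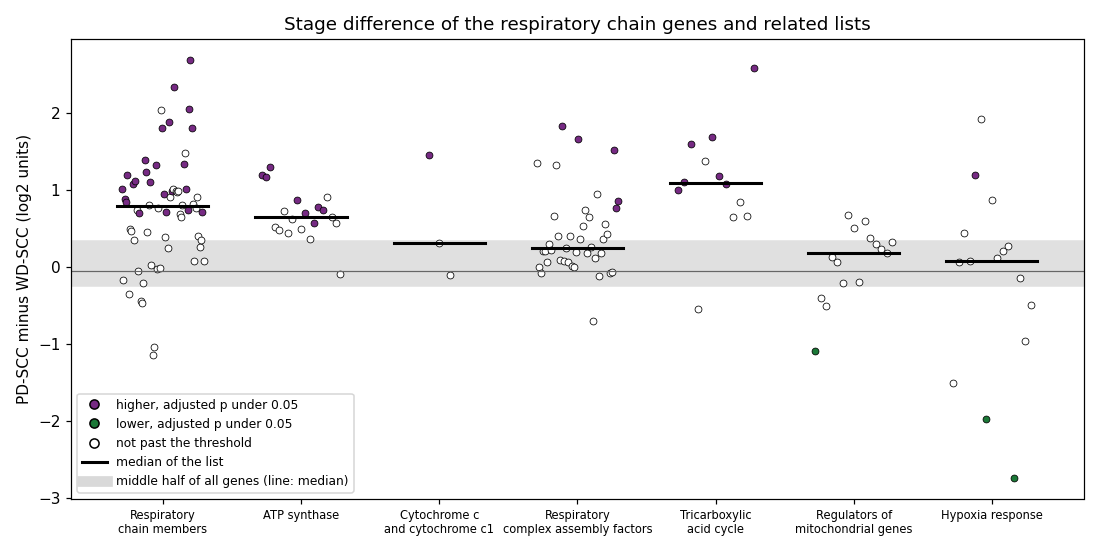
PD-SCC minus WD-SCC in log2 units (y axis) of the 62 members and of 6 lists of related genes (x axis), 1 point a gene, filled where the adjusted p was under 0.05, with the list median as a bar and the interquartile range of all genes shaded. The medians of the members (0.78), ATP synthase (0.65) and the tricarboxylic acid cycle (1.09) lie above the shaded range, and those of the assembly factors, regulators and hypoxia genes lie within it.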

How the data were processed

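The authors deposited 1 log2 value per probe set and array for 8 mouse Affymetrix arrays; per the submitters' processing notes these came from affy and RMA, whose background correction, quantile normalisation and summary pull array distributions together. The sources used here give no versions and do not say which arrays were normalised as 1 set. Stages and lineages came from the labels. Of 45141 probe sets, 28898 had 1 gene symbol in the platform annotation, 551 several and 15588 none; symbols were updated by gene ID (99.1% of genes matched RefSeq).

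Genes were tested with limma 3.58.1 in R 4.3.3 (lmFit and eBayes) with lineage as a block and 4 residual degrees of freedom, and within lineages with 1 coefficient per lineage and stage and 2 residual degrees of freedom from OT7. The fits were tested on simulated data. Lineages pair the stages per the series design, although deviations from the stage means correlated between stages at only -0.04, 0.02 and 0.06 in OT7, OT14 and OT15. Pathway and marker lists were written by function. The text names every called member, the 2 smallest p of each role, isoform pairs, the members with the 3 smallest p for interaction and for lineage, and up to 3 called genes of each pathway list. Other names (Ndufa9, Ndufb9, Ndufc2, Ndufb4, Ndufa3, Ndufa6, Ndufa8, Ndufs1, Ndufs4, Ndufs5-ps, Sdhc, Sdhd, the remaining complex III and IV genes, Idh2, regulators and markers) were chosen with their values in view. Members and lists were chosen with earlier results of these data known. Alternatives were no block, averaged OT7 arrays, a paired fit, a filter on dim genes, other uses of probe sets, other scalings, another prior and leaving out arrays or lineages. Mitochondrially encoded genes had no probe set named in the annotation used. Plots used Python 3.11.15 and matplotlib 3.10.9.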

Additional observations from a re-analysis of the deposited data

Results flagged for a closer look

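In 9 of 106 sets of 4 arrays (a named gene in a stage), 1 array lay far from the others by Dixon's test, which chance passes in about 1 of 20 sets. On the OT15 WD-SCC array this held for Uqcrfs1 (4.61, others 5.20 to 5.31), Uqcr11 (7.20, others 8.58 to 8.80), Ndufs3 (5.15, others 6.29 to 6.48) and Cd34 (3.58, others at least 6.72), all as the lowest. On the unnumbered OT7 WD-SCC array Ndufa4 was lowest (10.07, others 10.92 to 11.00), as was Cox4i2 (4.20, others 4.44 to 4.47). Ndufb3 was highest on OT7 WD-SCC number 2 (7.83, others 7.20 to 7.29). Among PD-SCC arrays, Ndufv3 was lowest in OT15 (9.13, others 9.61 to 9.68) and Cox8b in OT7 number 2 (3.74, others 4.01 to 4.05). Without that unnumbered OT7 array Ndufa4 was called lower in PD-SCC.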

How the results depend on the processing

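The count of 24 higher members rested on the OT7 arrays as separate samples and on the scaling. It was 0 with the OT7 arrays averaged and 0 in the equivalent paired fit on the lineage differences, where limma called 1.18% of all genes higher. At an unadjusted p under 0.05 both fits had 28 members higher and 3 lower, with 13.5% of all genes higher. Without lineage OT7 the count was 0 as well, with 0.304% of all genes called higher. Unadjusted, 25 members were then higher and 3 lower, with 12.6% of all genes higher. The count of higher members was 8 without lineage OT15 (4.92% of all genes), 10 with cyclic loess (4.67%) and 21 with 75th percentile scaling (6.73%). It was 5 to 21 when 1 array was left out (3.21% to 5.60% of all genes). With no lineage block, which ignores the pairing, it was 17 (7.31% of all genes), and 1 member was lower. The count of higher members was 29 with the filter on dim genes (15.4% of the genes kept) and 23 with the trended and robust prior (7.87%). It was 24 with the smallest p over every probe set of a gene (9.22%) and 21 with the mean of all probe sets (8.24%). The count of lower members was 1 with the filter on dim genes, the trended and robust prior or the added minimum mean of 6, 2 with cyclic loess (Cox8a and Ndufa4), 2 with 75th percentile scaling (Ndufa4 and Ndufa4l2) and 0 to 1 when 1 array was left out. The median over members was 0.47 with cyclic loess and 0.67 to 0.88 when 1 array was left out. It stayed positive in all 21 settings; 75th percentile scaling moved the median of all genes to -0.21 and that of the members to 0.63. The OT7 count of 18 was 11 with cyclic loess. All 24 called members kept their sign in the 21 settings, and Ndufa2, Sdhb, Cox5a and Cox4i1 were the 4 that passed in each of the 8 fits without 1 array. Those 8 fits are not all distinct, since leaving out either array of OT14 or of OT15 equals leaving out that lineage. Over named genes and settings, 756 results kept sign and side of the threshold, 321 lost the call, 14 gained one and 9 changed sign. The sign changes were Itga6 (0.15 with OT7 averaged or paired, -1.24 to 0.077 without 1 array, 1.06 without OT7), Cox7a1 (-0.22 to 0.71 without 1 array, -0.64 without OT7) and Cox6b2 (-0.054 without OT7). The causes were not tested. Dim signals near the bacterial controls limit Ndufs1, Sdhd and most restricted isoforms.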
